A study of Mus musculus with 60 samples.

Results

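The Fos and Jun families encode the subunits of AP-1, and 6 of their genes were followed here: Fos, Fosl1 (Fra-1), Fosl2 (Fra-2), Jun (c-Jun), Junb and Jund. They were chosen by name from the 35765 genes to which the deposited transcripts could be assigned, and the values of all transcripts of each gene were added up. All libraries came from Ai14xFosiCre mice, and the age given for those of the sorted populations is 8 to 16 weeks. The methods state this age for catheter implantation, before self-administration began. In this line a tamoxifen-inducible Cre driven by Fos turns on tdTomato for good in cells that are active when 4-hydroxytamoxifen is given. Mice self-administered cocaine and sucrose, went through extinction, and received 4-hydroxytamoxifen after a 30-min cocaine cue reinstatement session. They were killed 60 min after a 30-min sucrose cue reinstatement session and their cells were stained for NeuN, a neuronal nuclear protein, and for cFos protein. NeuN+ cells of the nucleus accumbens (NAc) core and of the medial prefrontal cortex (mPFC) were then sorted into 4 populations. Cocaine-seeking cells carried tdTomato only, sucrose-seeking cells carried cFos only, overlapping cells carried both and non-ensemble cells carried neither. Each library held the cells of 3 pooled mice, and each region, sex and population had 3 pools, giving 48 sorted libraries. A further 12 libraries, 3 per region and sex, are labelled naive. Their treatment tag names the same self-administration as that of the sorted libraries, and the labels do not say what naive means or how these cells were sorted. Those files list counts to more decimals and were deeper (29238727 to 45299753 counts), so naive state and processing cannot be told apart. The methods describe the accumbens punches as mainly lateral core and lateral shell, while the labels say core.

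AP-1 is a pair of leucine zipper proteins that binds DNA as a Fos-Jun or a Jun-Jun dimer. Fos is the best known immediate early gene of the brain: its transcript is induced within minutes of strong activity and decays quickly, while the protein follows later and lasts longer, which is why cFos staining is used to mark recently active neurons. Junb is induced in a similar way, Jun responds to activity and to stress signalling through Jun N-terminal kinases, Jund is expressed at a steady high level in most cells, and Fosl1 and Fosl2 encode later Fos relatives that lack the strong activation domain of Fos.

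Because Fos transcription is set off at the promoter, the windows of the 3 members most used as activity genes are shown, from 250 bases before to 50 bases after the annotated start (RefSeq, GRCm38.p6). Capitals mark the letters of the cAMP response element core TGACG, of the Jun-type AP-1 site TGACATCA and of the TATA motif TATAAA, searched on both strands.
Fos, chr12:85473640-85473939, plus strand: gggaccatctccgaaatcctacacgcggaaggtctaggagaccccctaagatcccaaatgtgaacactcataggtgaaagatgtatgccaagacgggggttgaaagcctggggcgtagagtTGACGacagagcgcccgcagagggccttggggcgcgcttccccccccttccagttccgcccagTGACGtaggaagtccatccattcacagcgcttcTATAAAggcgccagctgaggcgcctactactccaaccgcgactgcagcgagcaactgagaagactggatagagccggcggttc
Jun, chr4:95052173-95052472, minus strand: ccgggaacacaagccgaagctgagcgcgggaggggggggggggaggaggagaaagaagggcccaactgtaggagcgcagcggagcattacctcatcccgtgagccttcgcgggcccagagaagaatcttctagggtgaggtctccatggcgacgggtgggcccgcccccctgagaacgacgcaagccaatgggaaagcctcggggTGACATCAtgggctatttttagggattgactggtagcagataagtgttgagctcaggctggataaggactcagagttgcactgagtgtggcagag
Junb, chr8:84978699-84978998, minus strand: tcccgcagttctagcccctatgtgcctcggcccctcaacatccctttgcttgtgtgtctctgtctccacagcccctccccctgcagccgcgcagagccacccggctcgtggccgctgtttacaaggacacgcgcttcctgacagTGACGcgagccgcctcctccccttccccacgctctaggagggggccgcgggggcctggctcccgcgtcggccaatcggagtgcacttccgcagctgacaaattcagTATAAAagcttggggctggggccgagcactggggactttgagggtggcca

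In the Fos window TGACG began at -129 and -66 and TATAAA at -33, counted from the first transcribed base as 1. The Jun window held TGACATCA from -45, and the Junb window TGACG from -106 and TATAAA from 1. TGACG was present in 20.8% of the 32851 promoter windows of the same length, TATAAA in 13.6% and TGACATCA in 3.62%. No member window held the full element TGACGTCA (1.79% of windows), the AP-1 site TGACTCA (5.2%) or the CArG box (1.63%). The GC box GGGCGG (35.7%) was in the windows of Fos, Jun and Fosl2, and the Jund window held none of the motifs searched. Fosl1 had no window. These are matches of letters in short windows and say nothing of binding.

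The files listed 4 transcripts of Fos (GRCm39, chromosome 12, 85520658 to 85524047, plus strand, 4 exons in its coding transcript), 3 of Fosl1 (chromosome 19), 3 of Fosl2 (chromosome 5), 2 of Junb (chromosome 8) and 1 each of the single-exon genes Jun (chromosome 4) and Jund (chromosome 8). Over the 48 sorted libraries a median of 60.8% of the Fos counts was assigned to the coding transcript and 16.95% to a shorter one, of whose 795 bases 244 lie in introns of the coding transcript. Of the Fosl2 counts a median of 64.94% was assigned to its main coding transcript and 26.67% to a retained intron form. The share of the Fos coding transcript varied widely among libraries of 1 population, from 28.2 to 100% in the sucrose-seeking libraries of the NAc core. The sum per gene was therefore used. Whether this variation came from the estimated split of reads between transcripts at this depth was not tested.

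Depth was between 9933361 and 24500899 counts in the 48 sorted libraries. Labels and transcripts disagreed in places. The 8 sorted libraries of female pool 2 held Y-linked Ddx3y at 11.8 to 20.0 CPM (counts scaled to a common library size with the trimmed mean of M values), against 0.0704 to 2.15 CPM in the 16 other female libraries and 15.1 to 48.0 CPM in the 24 male ones. The summed markers of cortical excitatory neurons were 96.5 to 206 CPM in 4 of the 6 mPFC pools (16 libraries), below every sorted NAc core library (237 to 839 CPM). In male mPFC pools 1 and 3 the sum was 519 to 1110 CPM. Values without the doubtful pools are given where they end a call. Markers of astrocytes, which the NeuN gate should leave out, summed to 1817 to 6046 CPM in the sorted libraries, close to the neuronal list at 1608 to 5599 CPM.

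**Figure D1:**
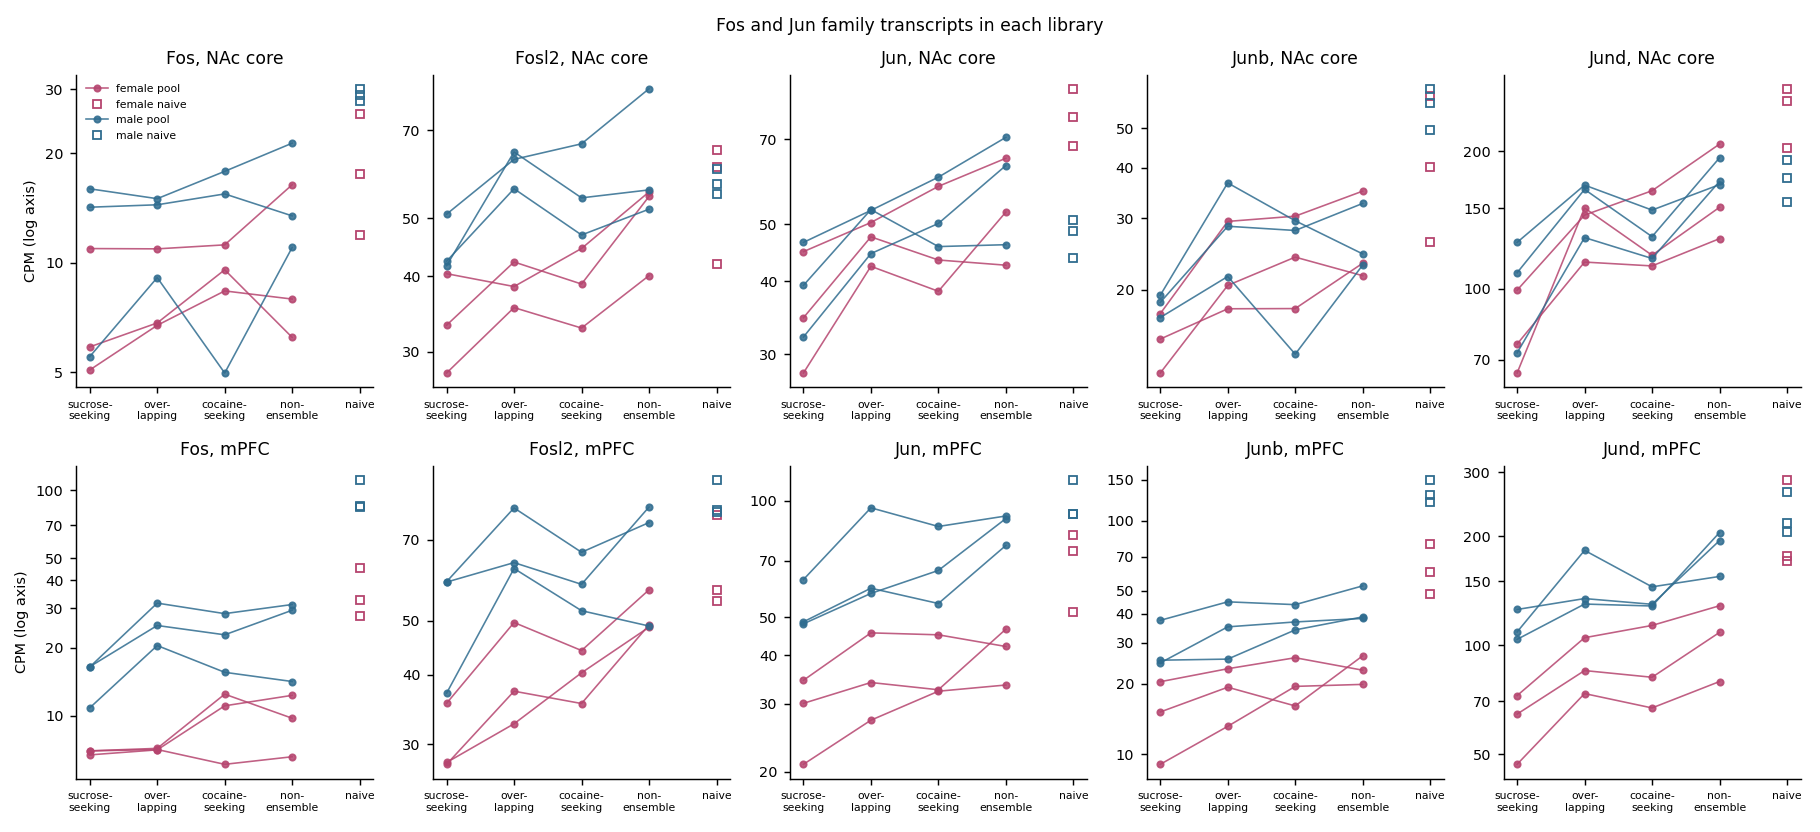
Each point is 1 library, with CPM of Fos, Fosl2, Jun, Junb and Jund on a log axis, for the 4 sorted populations and the naive libraries of NAc core (top) and mPFC (bottom). Lines join the 4 populations of 1 pool of mice, pink for females and blue for males, and open squares are naive. Jund in the sucrose-seeking population was the lowest of the 4 populations in 6 of 6 pools in both regions. Across both sexes the pools of Fos are spread more widely than the populations, while within each sex the 2 spreads are similar in the mPFC.

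Compared per length, in TPM (transcript abundance divided by effective length and scaled to a fixed total), Jund had the highest and Fosl1 the lowest median of the 6 in each sorted population of both regions. In the sucrose-seeking libraries of the NAc core the median was 193 TPM for Jund, 43.7 for Fosl2, 39.8 for Junb, 28.7 for Jun, 15.5 for Fos and 1.35 for Fosl1. The ranges of Fosl2 (23.7 to 76.7 TPM) and Junb (29.7 to 56.5 TPM) overlapped, so only Jund stood above and Fosl1 below all others there. In the naive mPFC libraries the median of Fos (105 TPM) was above that of Jund (99.0 TPM), with Jund ranging from 23.8 to 319 TPM. Fosl1 had 0 to 18 counts in any sorted library and 0 to 25 in any naive library, so little can be said of it.

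Fos was the first gene to examine, since the cFos gate reads its protein. No excess of Fos transcript was detected in the cFos-sorted populations over the cFos-negative ones. In the NAc core Fos was 5.07, 8.41 and 15.99 CPM (lowest, median and highest of 6) in sucrose-seeking libraries and 6.73, 10.0 and 15.0 CPM in overlapping ones. It was 4.98, 10.4 and 17.9 CPM in cocaine-seeking and 6.24, 12.3 and 21.4 CPM in non-ensemble libraries. The 4 ranges overlapped almost wholly, with the lowest median in a population sorted for cFos protein.

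In the mPFC Fos was 6.71, 8.92 and 16.5 CPM in sucrose-seeking, 7.07, 13.8 and 31.6 CPM in overlapping, 6.10, 14.04 and 28.4 CPM in cocaine-seeking and 6.59, 13.3 and 31.2 CPM in non-ensemble libraries. Across both sexes the level followed the pool more than the population. Means over the 4 populations of a pool ran from 6.69 to 26.9 CPM, a 4.02-fold range. Population means ran from 10.8 to 17.2 CPM, a 1.60-fold range. Within each sex the pool means and the population means covered similar ranges. In females pool means ran from 6.69 to 9.30 CPM and population means from 6.90 to 9.89 CPM. In males pool means ran from 15.3 to 26.9 CPM and population means from 14.6 to 25.8 CPM. The 12 female libraries were at 6.10 to 12.5 CPM and the 12 male ones at 10.8 to 31.6 CPM, the lowest of these being the sucrose-seeking library of pool 3.

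The first comparison asked whether the members differ between the cFos-sorted populations (sucrose-seeking and overlapping) and the cFos-negative ones (cocaine-seeking and non-ensemble), with sexes weighted equally (edgeR quasi-likelihood test, 24 libraries per region, Benjamini-Hochberg adjustment over all genes). None of the 6 passed the test as higher in the cFos-sorted libraries. For Fos the log2 fold change was -0.23 (SE 0.21, 95% interval -0.64 to 0.19, adjusted p = 0.51) in the NAc core and -0.36 (SE 0.15, interval -0.65 to -0.07, adjusted p = 0.22) in the mPFC. With 1 library left out the value for the NAc core ran from -0.34 to -0.098.

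Of the 6 members only Jund passed, and only in the NAc core, where it fell by 0.34 on the log2 scale (SE 0.09, adjusted p = 0.015). In this comparison 16.1% of all genes passed in the NAc core and 1.26% in the mPFC. In the NAc core Jun was at -0.27 (SE 0.09, adjusted p = 0.053), Junb at -0.25 (SE 0.13) and Fosl2 at -0.19 (SE 0.09). In the mPFC Jun was at -0.28 (SE 0.11), Junb at -0.35 (SE 0.13), Jund at -0.31 (SE 0.10) and Fosl2 at -0.22 (SE 0.10). The median over all genes was 0.13 and 0.03, so the values of these 5 members lay below that of the median gene. Fosl1 did not pass (adjusted p = 0.76 and 0.45). With counts rescaled by effective length Jund did not pass in the NAc core (-0.05, adjusted p = 0.89), and Junb (0.042) and Fosl2 (0.027) there changed sign.

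The 4 populations of a pool come from the same mice, and a fit with the pool as a block (replicate block) changed these calls. In it Fosl2 (adjusted p = 0.024), Jun (0.0053) and Jund (0.00011) fell in the NAc core, where 24.7% of all genes then passed. In the mPFC Fos (-0.32, adjusted p = 0.032), Fosl2 (0.012), Jun (0.0019), Junb (0.0031) and Jund (0.00068) fell, where 14.9% of all genes then passed. This contrast averages sucrose-seeking and overlapping cells, and in the mPFC Fos was below non-ensemble cells of the same mice in 5 of 6 pools for the former and 3 of 6 for the latter. Fitted for each sex alone without the block, none of the 6 passed in either region, and of all genes 0.254% did in the female NAc core and 0% in the female mPFC and in both male regions. With the block Fosl2, Junb and Jund fell in the female NAc core (17.7% of all genes), Fosl2 and Jund in the female mPFC (7.38%) and Jund in the male NAc core (11.7%), and none in the male mPFC (2.39%).

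The effect of the cFos sort on the members was not shown to differ between females and males or between regions. The test of each difference called 0 of all genes (edgeR; 711, 740 and 1275 genes at an unadjusted p under 0.05 for the sex difference in NAc core, the sex difference in mPFC and the region difference).

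**Figure D2:**
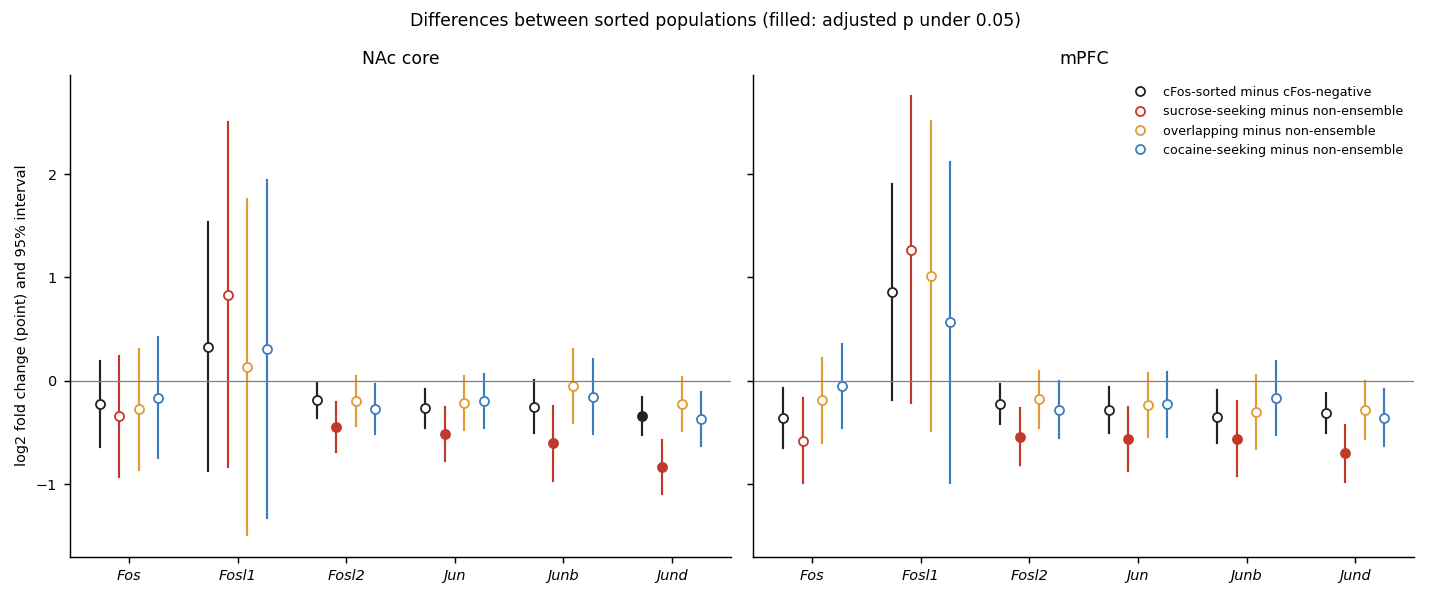
Log2 fold changes (points) with 95% intervals (bars) of the 6 members in 4 comparisons, NAc core on the left and mPFC on the right, filled where the adjusted p was under 0.05. Fosl2, Jun, Junb and Jund are filled for sucrose-seeking against non-ensemble in both regions on summed counts, and in neither with length-scaled counts, and the intervals of Fosl1 are several times wider than those of the others.

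The 2 cFos-sorted populations were not alike. Against non-ensemble cells, Fosl2, Jun, Junb and Jund fell in the sucrose-seeking population of both regions, 4 of 6 members, while 27.4% of all genes passed in the NAc core (13.9% lower) and 13% in the mPFC (6.94% lower). The median of all genes was 0.27 and 0.10 in the 2 regions, so the falls are larger when read against the bulk of genes. These calls rest on summed counts: none passed once counts were rescaled by the deposited effective lengths, where the 2 medians were 0.11 and 0.03 (given with the effective lengths). The share of all genes passing on that scale is not given here, so this loss is not set against all genes.

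Jund showed the largest fall. It was at 65.5, 87.6 and 126 CPM in the sucrose-seeking libraries of the NAc core and at 129, 170 and 207 CPM in the non-ensemble libraries, without overlap. The log2 fold change was -0.83 (SE 0.13, adjusted p = 9.7e-05). In the mPFC the values were 46.9, 88.1 and 125 CPM against 79.3, 142 and 205 CPM, ranges that overlapped, with a log2 fold change of -0.70 (SE 0.14, adjusted p = 0.0030). Within each of the 6 pools of both regions the sucrose-seeking library was below the non-ensemble library of the same mice.

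Junb, which is induced along with Fos, was at 12.5, 17.3 and 19.4 CPM in sucrose-seeking and 21.7, 23.9 and 35.0 CPM in non-ensemble libraries of the NAc core, again without overlap (log2 fold change -0.61, SE 0.19, adjusted p = 0.016). In the mPFC it was at 9.05, 22.5 and 37.4 CPM against 19.9, 32.2 and 52.6 CPM (log2 fold change -0.56, SE 0.18, adjusted p = 0.045). The mPFC ranges overlapped across pools, but 6 of 6 pools were lower in sucrose-seeking cells. This mPFC call was lost in 10 of the 24 fits that left out 1 library (adjusted p from 0.020 to 0.13 over all 24), and the NAc core call without female non-ensemble replicate 2 (adjusted p = 0.065).

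Jun was at 27.9, 37.0 and 46.6 CPM in sucrose-seeking and 42.6, 57.8 and 70.5 CPM in non-ensemble libraries of the NAc core (log2 fold change -0.52, SE 0.13, adjusted p = 0.0049). In the mPFC it was at 20.9, 41.3 and 62.6 CPM against 33.5, 61.7 and 91.3 CPM (-0.56, SE 0.16, adjusted p = 0.021). Fosl2 was at 27.6, 41.0 and 50.7 CPM against 40.1, 54.8 and 82.0 CPM in the NAc core (-0.45, SE 0.12, adjusted p = 0.0079) and at 27.6, 36.3 and 58.8 CPM against 48.7, 53.0 and 80.2 CPM in the mPFC (-0.54, SE 0.14, adjusted p = 0.013). Both genes were lower in 6 of 6 pools of each region, although their ranges overlapped. The mPFC call of Jun was lost without male non-ensemble replicate 1, male sucrose-seeking replicate 2, female sucrose-seeking replicate 1 or female non-ensemble replicate 3 (adjusted p up to 0.068).

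The mPFC falls did not pass in the 8 libraries of male pools 1 and 3 alone, those with the higher cortical markers, a choice made after seeing the data. Jund was then at -0.75 (SE 0.25, adjusted p = 0.25), Jun at -0.71 (SE 0.28), Junb at -0.62 (SE 0.25) and Fosl2 at -0.37 (SE 0.30), with 2 pools instead of 6. Without female pool 2 all 4 genes passed in both regions, Junb of the NAc core at an adjusted p of 0.049.

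Fos itself did not pass against non-ensemble cells: -0.34 (SE 0.30, adjusted p = 0.42) in the NAc core and -0.58 (SE 0.21, adjusted p = 0.070) in the mPFC, lower in 5 of 6 pools of each region. With the replicate block the mPFC value passed (-0.54, adjusted p = 0.0061), beside 25.4% of all genes, and the NAc core value did not (-0.38, adjusted p = 0.094, beside 33.6%). With 1 library left out the NAc core value ran from -0.56 to -0.086, and the mPFC value passed without male non-ensemble replicate 3, female cocaine-seeking replicate 1 or female non-ensemble replicate 1 (adjusted p down to 0.020). Fosl1 was at 1 to 16 counts in the sucrose-seeking libraries of the NAc core and 3 to 18 in those of the mPFC, against 0 to 18 and 0 to 11 in non-ensemble libraries, and did not pass (adjusted p = 0.50 and 0.29).

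In the overlapping and in the cocaine-seeking population no member passed against non-ensemble cells, while 3.3% and 0.145% of all genes did in the NAc core and 0.739% and 0.0798% in the mPFC. For Fos the overlapping population was at -0.28 (SE 0.30) and -0.19 (SE 0.21) and the cocaine-seeking population at -0.17 (SE 0.30) and -0.05 (SE 0.21), NAc core first. None of these has a firm sign: with 1 library left out the overlapping values reached -0.020 and -0.071 and the cocaine-seeking ones 0.091 and 0.081, and in male pools 1 and 3 alone the overlapping value was 0.20. With the replicate block Jund and Fosl2 fell in cocaine-seeking cells of both regions (10.3% and 16.4% of all genes) and Jund in overlapping cells of the mPFC (15% of all genes), while none passed in overlapping cells of the NAc core (16.5%).

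Set directly against the other cells, the sucrose-seeking population of the NAc core had less Jund than the overlapping population (-0.61, SE 0.13, adjusted p = 0.028, 0.97% of all genes) and than the cocaine-seeking population (-0.47, SE 0.13, adjusted p = 0.047, 4.21% of all genes). The second call was lost in 19 of 24 fits that left out 1 library and without female pool 2, and the first in 8 of 24. The same gene passed the test of whether the effect of the cFos sort depends on tdTomato (-0.98, SE 0.19, adjusted p = 0.0098, 7.18% of all genes). None of these 3 calls held with length-scaled counts (-0.63, adjusted p = 0.29, -0.42, adjusted p = 0.38 and -0.52, adjusted p = 0.33, in the same order). No member passed these tests in the mPFC, where 0.319%, 0.406% and 0.104% of all genes did, again in this order. With the replicate block 3 and 4 members in the mPFC and NAc core fell against overlapping cells (5.96% and 10.3% of all genes), and 4 and 3 against cocaine-seeking cells (5.72% and 14.4%). The dependence on tdTomato passed for 3 and 4 members (16.3% and 18.3%).

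Other genes of the same system are set against all genes, of which 13.9% fell and 13.5% rose in sucrose-seeking against non-ensemble cells of the NAc core, and 6.94% and 6.05% in the mPFC (medians 0.27 and 0.10). The values of these lists, and of the cell type markers below, rest on summed counts only. They were not examined with counts rescaled by effective length, where the falls of the members did not pass. Of 18 AP-1 partners tested, which include the remaining Fos gene Fosb, 5 fell and 1 rose in the NAc core, and 3 fell and 1 rose in the mPFC (median log2 fold change -0.12 and -0.18). Nfe2l1, a cap'n'collar factor, fell by 0.68 (SE 0.10) and 0.55 (SE 0.12) on the log2 scale, and Atf2, a leucine zipper partner of Jun, by 0.51 (SE 0.10) and 0.47 (SE 0.15). The gene that rose was Atf7, a close relative of Atf2, in both regions (0.31, SE 0.10 and 0.34, SE 0.11). Fosb was at -0.30 (SE 0.16, adjusted p = 0.17) and -0.35 (SE 0.20, adjusted p = 0.26). Of 26 upstream factors and kinases tested (27 listed), 13 fell and 2 rose in the NAc core, and 7 fell and 1 rose in the mPFC. Map2k1 (MEK1) fell by 0.66 (SE 0.11) and 0.72 (SE 0.14), Mapk3 (ERK1) by 0.66 (SE 0.12) and 0.69 (SE 0.14), and Mef2d, an activity-dependent factor, by 0.54 (SE 0.10) and 0.61 (SE 0.10). Elk3, an Ets factor best known from vessels, rose by 1.14 (SE 0.22) and 0.78 (SE 0.19), and Mef2a by 0.46 (SE 0.12) in the NAc core.

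Of 30 other immediate early genes, 10 fell and 1 rose in the NAc core, and 5 fell and 1 rose in the mPFC, with medians of -0.28 and -0.37. Ier5 fell by 0.71 (SE 0.13) and 0.56 (SE 0.11), and Egr3 and Egr4, zinc finger factors induced by activity, by 0.62 (SE 0.13) and 0.86 (SE 0.22) in the NAc core and by 0.62 (SE 0.16) and 0.85 (SE 0.22) in the mPFC. The gene that rose was Klf2, an endothelial regulator, in the NAc core and Npas4, a neuron-specific activity factor, in the mPFC. Of 10 stress chaperones 8 fell in the NAc core and 6 in the mPFC, none rose, and Hspa8 fell by 0.79 (SE 0.12) and 0.80 (SE 0.17).

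Markers of cell types moved with these values. All 7 neuronal markers fell in sucrose-seeking against non-ensemble cells of the NAc core (median -0.68) and 5 of 7 in the mPFC (median -0.67). Their summed level in the NAc core was 2736 to 3728 CPM in sucrose-seeking, 3692 to 4684 in overlapping, 3928 to 5136 in cocaine-seeking and 4904 to 5599 in non-ensemble libraries. All 8 astrocyte markers fell as well in the NAc core, with summed levels of 2216 to 3651 CPM against 4257 to 5379 CPM, and 2 of 8 in the mPFC.

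Endothelial markers went the other way. In the NAc core 8 of 8 rose in sucrose-seeking cells (summed level 103 to 241 CPM against 65.6 to 121 CPM in non-ensemble cells) and in the mPFC 4 of 8 (123 to 157 CPM against 44.7 to 124 CPM). Microglial markers had their highest median in overlapping libraries, at 431 to 578 CPM in the NAc core, against 372 to 499 CPM in cocaine-seeking, 142 to 233 CPM in sucrose-seeking and 197 to 291 CPM in non-ensemble libraries. The part of cell composition in the members' values was not tested, and in bulk libraries fewer cells of a type and less RNA per cell cannot be told apart.

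**Figure D3:**
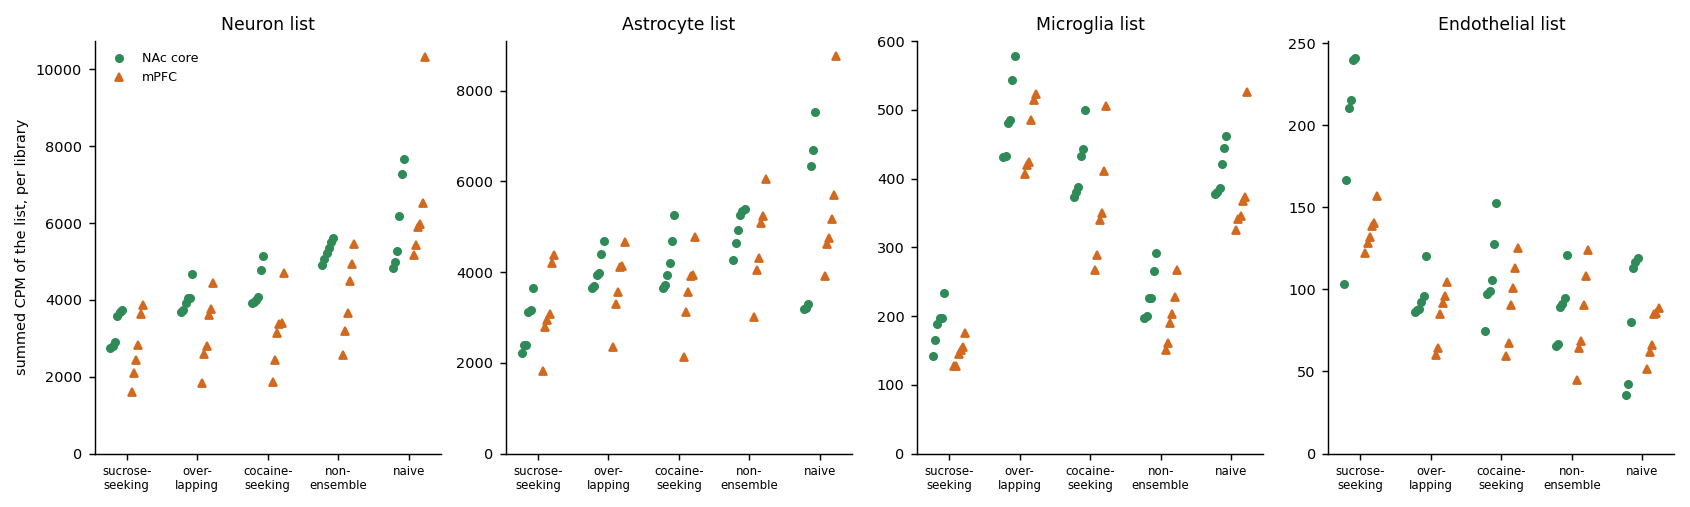
Summed CPM of the marker lists of neurons, astrocytes, microglia and endothelial cells in each library, by population, with circles for NAc core and triangles for mPFC. The neuronal sums of the NAc core are 2736 to 3728 CPM in sucrose-seeking and 4904 to 5599 CPM in non-ensemble libraries, and microglial sums there are 431 to 578 CPM in overlapping libraries.

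Fos was higher in the naive libraries than in each of the 4 sorted populations, in both regions (adjusted p of at most 0.016). Against cocaine-seeking, sucrose-seeking and overlapping cells 40.8%, 52.3% and 43.8% of all genes passed in the NAc core and 58.4%, 57% and 56.2% in the mPFC. In the mPFC Fos was at 27.8, 65.0 and 111 CPM (lowest, median and highest of 6), in females 27.8 to 45.2 CPM and in males 84.7 to 111 CPM, each above every sorted library of the same sex. The 3 male naive mPFC libraries held striatal projection neuron markers at 4033 to 4874 CPM, above every sorted mPFC library (512 to 3440 CPM). The 3 female ones held them at 1696 to 2406 CPM. Cortical excitatory markers summed to 445 to 2418 CPM in the 6 naive mPFC libraries. They summed to 519 to 1110 CPM in the sorted libraries of male mPFC pools 1 and 3. In the 16 sorted libraries of the other mPFC pools they summed to 96.5 to 206 CPM, with striatal markers at 1258 to 3440 CPM. The part of dissected region in these levels was not tested. The log2 fold change against non-ensemble cells was 1.89 (SE 0.20, adjusted p = 4.8e-08), while 39.1% of all genes passed. In the NAc core it was at 11.9, 26.8 and 30.1 CPM, overlapping the non-ensemble range, and the change was 0.93 (SE 0.28, adjusted p = 0.016), while 25% of all genes passed. The NAc core call was lost without female naive replicate 2 (0.75, adjusted p = 0.073).

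Junb was at 48.5, 100.1 and 149 CPM in naive mPFC libraries and at 26.2, 53.7 and 62.6 CPM in naive NAc core libraries. Against non-ensemble cells it rose by 1.53 (SE 0.18, adjusted p = 3.7e-07) and 0.92 (SE 0.19, adjusted p = 0.00097). Jund (0.66, SE 0.16, adjusted p = 0.0020) and Jun (0.49, SE 0.16, adjusted p = 0.020) rose in the mPFC, and in the NAc core they were at 0.33 (adjusted p = 0.076) and 0.15 (adjusted p = 0.41). The Jun call was lost without male naive replicate 2 (adjusted p = 0.064), and those of Jun and Jund in male pools 1 and 3 alone (0.07 and 0.29). Both signs turned with length-scaled counts. Without female pool 2 Jund passed in the NAc core too (0.44, adjusted p = 0.014), while Fosl2 and Fosl1 passed in neither region. With naive libraries counted among the cFos-negative ones, Fos, Fosl2, Jun, Junb and Jund were lower in the cFos-sorted libraries of both regions, where 40.4% (NAc core) and 34.4% (mPFC) of all genes passed. Fos was then at -0.59 (SE 0.19, adjusted p = 0.014) and -1.02 (SE 0.13, adjusted p = 2.5e-06). With length-scaled counts, described after the early genes, Fos alone of these 5 passed in the NAc core, where Fosl2, Junb and Jund changed sign, and Fos and Jun passed in the mPFC, where Jund changed sign.

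Of all genes 15.7% were higher and 9.29% lower in naive than in non-ensemble libraries of the NAc core, and 18.5% and 20.6% in the mPFC. Of the 30 other immediate early genes 14 were higher in naive than in non-ensemble libraries of the NAc core and 18 in the mPFC, none lower. Btg2, an antiproliferative early gene, rose by 1.62 (SE 0.21) and 2.22 (SE 0.23) on the log2 scale, and Npas4 by 1.26 (SE 0.22) and 2.03 (SE 0.22). Of the 7 neuronal markers 2 were higher in the NAc core and 6 in the mPFC, and the upstream list had 14 and 15 of 26 higher, 0 and 1 lower. These list values too were not examined with length-scaled counts.

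The scale on which a level is read mattered for the Jun genes. The deposited tables give an effective length for each transcript, by which counts are divided to give TPM. For the Jund transcript, 1667 bases long, it was 349 to 1775 bases in the sorted libraries (median 549.5) and 441 to 6071 bases in the naive ones (median 2986). For the Junb coding transcript, 1809 bases long, it was 334 to 1716 (median 455) and 449 to 2659 bases (median 1600). For the Fos coding transcript, 2108 bases long, the medians were 1067 and 911 bases. An effective length above the transcript length was listed for Jun, Junb and Jund in naive libraries and for Jund in sorted ones, and for the Fos coding transcript in no library. Guanine and cytosine made up 67.2% of the Jund and 62.6% of the Junb coding transcript, above 99.8% and 98.6% of coding transcripts, against 51.9% of that of Fos. The part of base composition was not tested.

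The effective length also differed between sorted populations. In the NAc core its median for Jund was 521.5 bases in sucrose-seeking libraries against 1018 in the non-ensemble ones. Median Jund there was 193 TPM in sucrose-seeking cells against 201.7 TPM in non-ensemble cells, while in CPM the 2 ranges did not overlap. When counts were rescaled by effective length (length-scaled counts), none of the falls in sucrose-seeking cells passed. Jund was then at -0.31 (adjusted p = 0.30) and -0.56 (adjusted p = 0.071), Junb at -0.19 (0.70) and -0.30 (0.51), Fosl2 at -0.22 (0.59) and -0.31 (0.44), and Jun at -0.44 (0.064) and -0.52 (0.054), NAc core first. All 8 values kept their sign.

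Of the rises in naive libraries, that of Fos held on this scale (1.01, adjusted p = 0.028 in the NAc core and 1.99, adjusted p = 3.8e-05 in the mPFC). Those of Junb did not pass (0.05, adjusted p = 0.91 and 0.56, adjusted p = 0.052). Jun turned from 0.15 to -0.25 (adjusted p = 0.25) and from 0.49 to -0.044 (adjusted p = 0.85). Jund turned round and was lower in naive than in non-ensemble libraries, at -0.86 (adjusted p = 0.0016) and -0.92 (adjusted p = 0.00028), so no direction can be given for Jun or Jund in naive libraries. The median of all genes in this comparison moved from -0.14 to -0.03 in the mPFC.

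**Figure D4:**
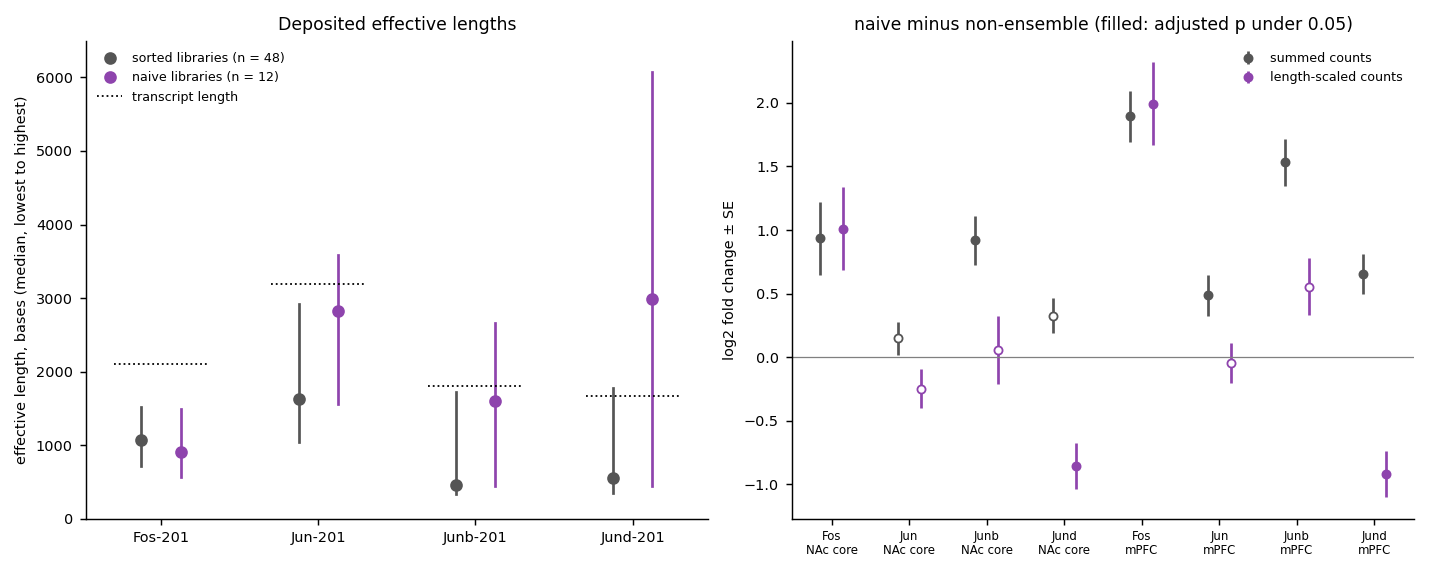
Left, effective length in bases of the coding transcripts of Fos, Jun, Junb and Jund (point, median; bar, lowest to highest) in 48 sorted and 12 naive libraries, with the transcript length dotted. Right, log2 fold change ± SE of naive against non-ensemble libraries from summed counts and from length-scaled counts, filled where the adjusted p was under 0.05. Fos is alike on both scales, and Jund is above 0 on one and below 0 on the other.

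The members varied together across the 24 sorted libraries of a region, which share pools and depth. In the mPFC Pearson's r of log2 CPM ran from 0.64 (Fos and Fosl2) to 0.93 (Jun and Jund), and in the NAc core from 0.24 (Fos and Jund) to 0.82 (Jun and Jund). Among 13314 genes of the NAc core with at least 5 CPM on average, the 5 most like Fos were Arc (r = 0.82), Nr4a1 (0.75), Dusp1 (0.75), Junb (0.74) and Igsf3 (0.73). The first 3 are immediate early genes, which encode a synaptic protein, a nuclear receptor and a phosphatase. In the mPFC the genes most like Fos were Scn2a (r = 0.93), Flrt1, Tmem38a, Dagla and Ptprn2 (each 0.92). The gene most like Junb was Tmem132c in the NAc core (0.86), followed by Nectin1, Chga, Olfm1 and Zdhhc3, and Arc in the mPFC (0.93), followed by Ddx54, Golga2, Irf2bpl and Ptms.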

How the data were processed

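Low-input libraries (ribosome-depleted in the methods, polyA RNA in the labels) were sequenced and, per the labels and methods, quantified by the authors with Salmon against the GRCm39 transcriptome, in a version not stated here. The deposited expected counts, TPM (abundance per effective length, scaled to a fixed total) and effective lengths per transcript were summed here by gene through GENCODE vM39 names (116131 of 117209 transcripts matched), and counts were rounded. Depth was 9933361 to 24500899 counts in 48 sorted and 29238727 to 45299753 in 12 naive libraries. edgeR 4.0.16 (TMM factors, filterByExpr, quasi-likelihood test on group means) was run per region over 24 libraries, 30 with naive, and per sex over 12, with Benjamini-Hochberg adjustment over all genes and a threshold of 0.05. SE is the log2 fold change over the square root of F. CPM used the same factors. Length-scaled counts are TPM times mean effective length, rescaled to library totals. Tested on simulated data, the cFos-sorted comparison recovered 66% (NAc core) and 54% (mPFC) of genes changed by 0.5 and 96% of those changed by 1 on the log2 scale. The simulated libraries had no differences between pools or sexes, and low-count genes were not among those changed. These shares therefore need not hold for the real libraries.

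The alternatives were DESeq2 1.42.0, limma 3.58.1 voom, other scalings, no filter, the study's thresholds, a replicate block and left-out libraries. Replicate numbers pair the populations of a region and sex because they mark the same mice. Deviations from group means correlated between same-numbered libraries at 0.092 to 0.17 on average and at -0.046 to -0.086 between others. Labels do not say that pools within a group were handled apart, so p-values of the fits without a block measure the spread between pools. Those of the replicate block measure the spread left once differences between pools are taken out. The sex tags of 2 libraries go against their titles, and the titles were used. Genes named from lists are the at most 4 with the smallest adjusted p per list and comparison, and those counted singly as rising were named after their values were seen. The members and lists were chosen with earlier results of these data known.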

Additional observations from a re-analysis of the deposited data

Results flagged for a closer look

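Of 50 groups of 6 libraries examined (5 members, 2 regions, 5 populations), 1 had a library far from the other 5, where chance gives about 1 in 20. In the NAc core Fosl2 was at 82 CPM in non-ensemble male replicate 1, and the next library was at 55.7 CPM.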

How the results depend on the processing

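Counts of members past the threshold are given as before and after a change. Shares of all genes were given only for the main fits and the replicate block. Member counts under the other settings are therefore not set against a share. The study's thresholds (adjusted p of 0.01, log2 change of 0.75) gave 0 in place of 1 for the cFos sort, for sucrose-seeking against cocaine-seeking and against overlapping cells of the NAc core, and 1 and 0 in place of 4 for sucrose-seeking against non-ensemble cells. Length-scaled counts gave 0 in each of these 5 comparisons and in the tdTomato interaction of the NAc core. They gave 1 and 3 in place of 5 for the cFos sort with naive libraries (the 3 in the mPFC are Fos, Jun and Fosl1) and 2 in place of 4 for naive mPFC libraries. They turned round Fosl2 (0.027) and Junb (0.042) in the NAc core cFos sort, with naive libraries Fosl2 (0.030), Junb (0.034) and Jund (0.25) in the NAc core and Jund (0.029) in the mPFC, and in naive against non-ensemble libraries Jun (-0.25 and -0.044) and Jund (-0.86 and -0.92). DESeq2 gave 2 in both regions for the cFos sort, 1 in the female NAc core, 2 against overlapping cells of the NAc core, and 4 (NAc core) and 2 (mPFC) in the interaction. Size factors gave 2 for the NAc core cFos sort and 1 in the mPFC interaction, and coding transcripts alone 3 for the NAc core cFos sort. The replicate block gave 3 and 5 for the cFos sort, 3, 2 and 1 in the female NAc core, female mPFC and male NAc core, 2 in both regions for cocaine-seeking cells, 1 for overlapping cells of the mPFC, 3 and 4 against cocaine-seeking cells, 4 and 3 against overlapping cells and 4 and 3 in the interaction (NAc core first), and also passed Fos in sucrose-seeking against non-ensemble cells of the mPFC. It changed no other call. A fit of the 2 populations alone, and one without female pool 2, gave 0 against cocaine-seeking cells of the NAc core. Male pools 1 and 3 alone gave 0 for sucrose-seeking against non-ensemble cells, 2 for the cFos sort with naive libraries and 2 for naive libraries, and Fos at 0.20 in overlapping cells. Without female pool 2 Fos in cocaine-seeking cells was at 0.035 and 0.021. With 1 library left out, the counts ran from 1 to 2 for the NAc core cFos sort, 2 to 5 for sucrose-seeking against non-ensemble cells of the mPFC, 0 to 1 against cocaine-seeking and overlapping cells of the NAc core, 1 to 4 and 0 to 1 in the interaction, 0 to 1 in the female NAc core and 1 to 2 for naive NAc core libraries. Fos in cocaine-seeking cells then ran from -0.34 to 0.091 and from -0.20 to 0.081, and Fosl1 in the NAc core cFos sort from -0.087 to 0.64. Over all alternatives the genes called ran from 71 to 6810 (4432 as reported) and 0 to 4291 (362) for the cFos sort, and from 1599 to 9256 (7544) and 4 to 7325 (3744) for sucrose-seeking against non-ensemble cells. The cause of these shifts was not tested. Alternatives that leave out pools, use voom or length-scaled counts for naive libraries, or leave out a naive library, were chosen after seeing the data. Depth limits Fosl1 (0 to 18 counts) and Fos (72 to 443 counts) in the sorted libraries.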
